A study of Mus musculus with 20 samples.

Results

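Transcripts of the urea cycle and of hepatic ammonia handling, 9 in all, were followed through 20 mouse liver RNA-seq libraries. The members were listed by name. They are Nags, Cps1, Otc, Ass1, Asl and Arg1, which encode the activator-forming enzyme and the cycle enzymes, the mitochondrial carriers Slc25a15 and Slc25a13, and the liver glutaminase Gls2. All 9 members, of 55359 gene identifiers in the count tables, were present, and all 9 were among the 14428 genes with enough counts to be tested.

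The libraries came from male wild-type C56BL/6 mice killed at 35 weeks of age, all painted as newborns with 50 µL of 0.5% DMBA, a polycyclic hydrocarbon carcinogen. There were 4 libraries in each of 5 groups, namely tumour pieces of exercised and of non-exercised mice on a high-fat diet, non-tumour pieces of exercised and of non-exercised mice on that diet, and liver of mice that ate a normal diet and did not exercise. All mice of the first 4 groups thus had DMBA and the high-fat diet, and the normal-diet mice also had DMBA, so no untreated liver entered. The high-fat diet gave 60% of its energy as fat, 20% as protein and 20% as carbohydrate. The normal diet gave 12% as fat, 29% as protein and 59% as carbohydrate. Fat, protein and carbohydrate intake therefore cannot be told apart. Exercised mice ran on a treadmill from 20 weeks of age, with 5 weeks of training that started at 10 m/min, followed by 10 weeks at 18 m/min, 5 days weekly and 20 min daily. The last run of the exercised mice was at most 2 h before both high-fat arms were killed, on 1 day, and the kill time of normal-diet mice is not given in the sources used here. Library totals ran between 16471378 and 20271948 counts. Alb, the serum albumin gene that marks hepatocytes, held at least 4.06% of counts in every library.

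Ammonia set free from amino acids, in part by the glutaminase GLS2, is joined to bicarbonate by carbamoyl phosphate synthetase 1 (CPS1) in the mitochondria of hepatocytes, and CPS1 needs N-acetylglutamate, made by NAGS. OTC joins carbamoyl phosphate to ornithine, the carrier SLC25A15 exchanges ornithine and citrulline across the inner membrane, and ASS1, ASL and ARG1 complete the cycle in the cytosol, with aspartate exported by the carrier SLC25A13. In liver the cycle is strongest in periportal hepatocytes, while hepatocytes next to the central vein take up the remaining ammonia with glutamine synthetase (Glul).

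Promoter windows from RefSeq on GRCm38.p6, each of 300 bases from 250 before to 50 after an annotated start, were held for 5 of the 9 members (Otc, Ass1, Nags, Slc25a15 and Slc25a13). Cps1, Asl, Arg1 and Gls2 had no entry. Windows of 4 members are shown, those of Ass1 and Slc25a13 for the motif they share and those of Otc and Nags because they carry none of the motifs searched; of these 2, Otc passed in the tumour comparisons given further on and Nags did not. Capitals mark the E-box CACGTG and, in Slc25a13, also the CCAAT box.
Ass1 (chr2:31470020-31470319, plus strand): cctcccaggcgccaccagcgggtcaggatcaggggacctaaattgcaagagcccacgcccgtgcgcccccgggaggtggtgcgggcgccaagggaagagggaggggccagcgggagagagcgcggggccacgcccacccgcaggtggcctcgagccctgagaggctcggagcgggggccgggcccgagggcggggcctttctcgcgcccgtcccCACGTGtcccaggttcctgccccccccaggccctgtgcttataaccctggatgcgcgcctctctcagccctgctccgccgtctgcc
Slc25a13 (chr6:6217124-6217423, minus strand): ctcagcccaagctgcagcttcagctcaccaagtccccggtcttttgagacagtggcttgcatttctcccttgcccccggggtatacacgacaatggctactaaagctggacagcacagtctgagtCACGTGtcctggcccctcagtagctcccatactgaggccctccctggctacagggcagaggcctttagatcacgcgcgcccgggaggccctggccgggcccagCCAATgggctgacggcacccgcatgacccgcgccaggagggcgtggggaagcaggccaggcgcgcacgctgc
Otc (chrX:10252055-10252354, plus strand): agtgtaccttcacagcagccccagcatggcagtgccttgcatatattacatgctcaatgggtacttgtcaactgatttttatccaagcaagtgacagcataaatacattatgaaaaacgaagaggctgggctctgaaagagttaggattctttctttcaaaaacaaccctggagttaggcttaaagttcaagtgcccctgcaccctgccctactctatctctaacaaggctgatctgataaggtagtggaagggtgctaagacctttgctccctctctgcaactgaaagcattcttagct
Nags (chr11:102145263-102145562, plus strand): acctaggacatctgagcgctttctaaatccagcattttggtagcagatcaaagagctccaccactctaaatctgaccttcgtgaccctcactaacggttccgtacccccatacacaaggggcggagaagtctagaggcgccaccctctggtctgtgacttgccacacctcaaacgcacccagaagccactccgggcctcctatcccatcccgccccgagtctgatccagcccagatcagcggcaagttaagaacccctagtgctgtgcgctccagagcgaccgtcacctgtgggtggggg
Both strands were searched for the E-box CACGTG, the TATA box TATAAA, the CCAAT box, the C/EBP-type site TTGCNNAA, the cyclic AMP response element TGACGTCA and the HNF4-type site CAAAGTCCA. CACGTG was chosen after these windows had been read. It began 36 bases before the start of Ass1 and 125 bases before that of Slc25a13, and a second annotated start of Slc25a15 had it 77 bases before. Of all 32817 promoter windows of this length, 7.15% hold CACGTG and 37.4% hold CCAAT, so these matches describe the windows and no binding was measured. The windows differ in base composition, from 44.3% G or C and 1 CG step in Otc to 79% and 51 at that second start of Slc25a15. Ass1 had 74% and 27.

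Levels between genes were compared as CPM per kb, that is read counts scaled to library size (with TMM, the trimmed mean of M-values) and divided by the length of annotated exon. That length takes in all annotated exons, whether or not liver uses them, and the SDs do not cover this uncertainty. In normal-diet liver Cps1 stood at 701 ± 85.4, Arg1 at 675 ± 30.2 and Ass1 at 670 ± 111 CPM per kb (SD, n = 4), and these 3 levels do not differ beyond their spread. Otc at 161 ± 21.0, Asl at 131 ± 11 and Gls2 at 104 ± 15.9 CPM per kb came next. Otc and Asl overlapped in range, and the highest Gls2 library, at 116, lay just below the lowest Asl library, at 121. The carriers Slc25a15 at 71.9 ± 4.62 and Slc25a13 at 66.8 ± 3.42 CPM per kb overlapped in range. Nags, whose product is needed only to make an activator, was lowest at 24.9 ± 1.94 CPM per kb, with its highest library at 27.4 and the lowest Slc25a13 library at 61.9. On the high-fat diet the order changed at the top, and Arg1 averaged above Cps1 in all 4 groups. This order rests on the division by length. In CPM alone Cps1 averaged above Arg1 in every group, with 3895 against 1505 CPM on the normal diet. In tumour pieces Arg1 had 449 ± 38.4 CPM per kb in exercised and 294 ± 74.8 in non-exercised mice, against 237 ± 50.2 and 153 ± 29.4 for Cps1, without overlap. In non-tumour pieces Arg1 had 593 ± 91.9 CPM per kb in exercised and 465 ± 43.8 in non-exercised mice, against 443 ± 119 and 284 ± 72.0 for Cps1, with overlap in exercised mice only.

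**Figure D1:**
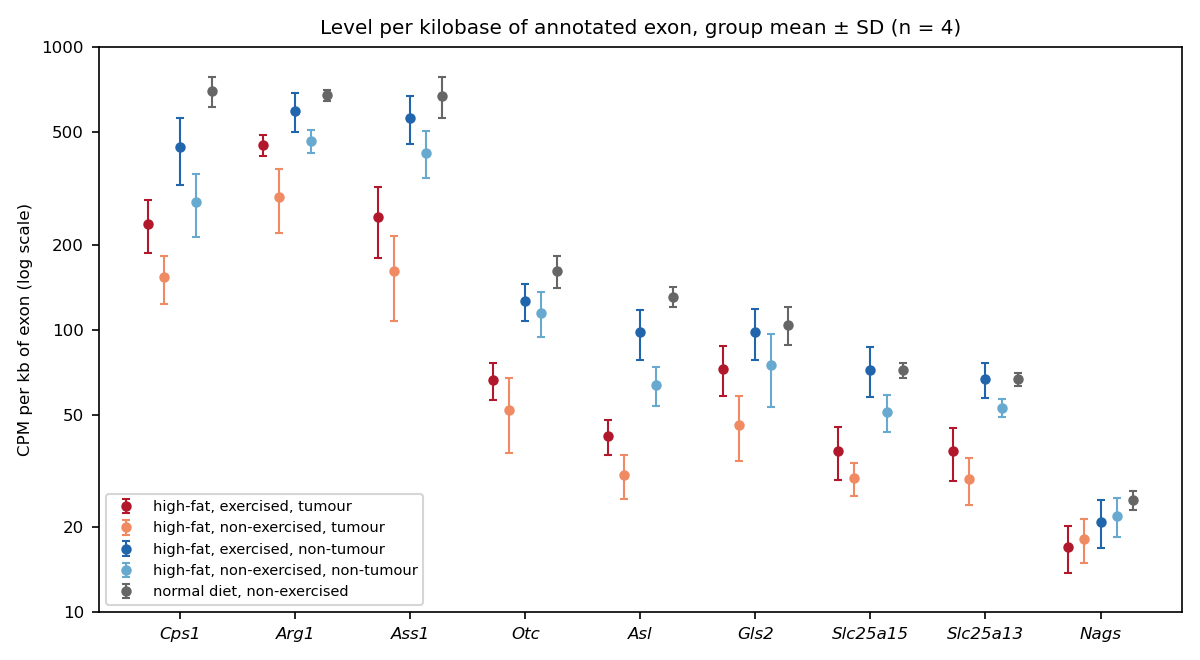
Mean CPM per kb of exon (log scale) with SD (n = 4) for each of the 9 genes, ordered by their mean on the normal diet, in the 5 groups. Cps1, Arg1 and Ass1 lie together at 670 to 701 on the normal diet, and Arg1 stands above Cps1 in the 4 high-fat groups, tumour and non-tumour.

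Positions of the genes follow the deposited tables, on GRCm39. Cps1 lies on chromosome 1 (67162185 to 67270418, plus strand), Ass1 on 2 (31360219 to 31410684, plus), Asl on 5 (130040099 to 130058088, minus), Slc25a13 on 6 (6041218 to 6217173, minus) and Slc25a15 on 8 (22865567 to 22888613, minus). Arg1 lies on chromosome 10 (24791119 to 24803382, minus), Gls2 also on 10 (128030326 to 128045873, plus), Nags on 11 (102036339 to 102040303, plus) and Otc on X (10118544 to 10187263, plus). Counts are per gene over its exons. Ass1 has a processed copy, Gm5424, with which 911 of 2359 of its 50-base words (38.6%) are shared, so reads could be split or lost and the level of Ass1 is uncertain. Gm5424 itself had 3.54 to 26.8 CPM in the 20 libraries. Gls2 overlaps ENSMUSG00000118550.2 on its own strand, a gene at 0.93 to 5.45 CPM.

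Urea cycle transcripts were lower in non-tumour liver of high-fat mice than in normal-diet liver. The high-fat pieces are read here as coming from mice that also gave tumour pieces, and the normal-diet titles name no tumour. Diet and a tumour elsewhere in the liver therefore cannot be told apart, for exercised high-fat mice as well. In non-tumour pieces of non-exercised high-fat mice against normal-diet liver, 5 of the 9 members fell (edgeR quasi-likelihood test, Benjamini-Hochberg adjusted p under 0.05 over 14428 genes), the other 4 did not pass, and the median log2 fold change was −0.49, against 0.01 over all genes. Over all genes 11.9% fell. Cps1, the entry enzyme, and Asl, which cleaves argininosuccinate into arginine and fumarate, had the largest changes. In these groups each of the 9 estimates was below 0, as were 48.6% of all genes.

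Cps1 had 1232, 2152, 1428 and 1490 CPM in non-tumour pieces of non-exercised high-fat mice, against 4059, 3214, 3993 and 4314 CPM in normal-diet liver. High-fat replicate 2 was the highest of its group and still lay below every normal-diet library. The log2 fold change was −1.31 ± 0.22 (SE; adjusted p = 0.000522, edgeR), a 59.5% lower level. Asl had 289, 379, 273 and 290 CPM in the high-fat pieces, against 674, 686, 596 and 582 CPM on the normal diet, with no overlap and a log2 fold change of −1.04 ± 0.16 (adjusted p = 0.000324, edgeR).

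Arg1, the arginase that releases urea, stood at 942, 1170, 1036 and 993 CPM in high-fat pieces, against 1557, 1553, 1413 and 1497 CPM on the normal diet. Its groups were also apart, with a log2 fold change of −0.54 ± 0.15 (adjusted p = 0.0165, edgeR). Slc25a15, the ornithine carrier, had 252, 343, 255 and 305 CPM in high-fat pieces, against 417, 366, 418 and 418 CPM in normal-diet liver (log2 fold change −0.49 ± 0.16, adjusted p = 0.0349, edgeR), again without overlap. Ass1, argininosuccinate synthase, had 883, 1308, 933 and 962 CPM in high-fat pieces, against 1776, 1221, 1689 and 1784 CPM on the normal diet. Its groups overlapped through replicate 2 of each (log2 fold change −0.66 ± 0.24, adjusted p = 0.0467, edgeR). The calls of Ass1 and Slc25a15 are the fragile ones: leaving out any 1 library of these 2 groups other than replicate 2 of either gave adjusted p of 0.0882 to 0.117 for Ass1 and 0.0606 to 0.103 for Slc25a15 in edgeR, and over all alternatives the ranges were 0.0102 to 0.117 and 0.00882 to 0.103.

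The other 4 members did not pass on the diet comparison. Otc had a log2 fold change of −0.48 ± 0.19 (adjusted p = 0.0661, edgeR) and Gls2 one of −0.48 ± 0.22 (adjusted p = 0.113, edgeR). Without high-fat replicate 2, Otc passed at −0.61 (adjusted p = 0.0347, edgeR) and Gls2 at −0.70 (adjusted p = 0.0239, edgeR), and over all alternatives the adjusted p ran between 0.0262 and 0.173 for Otc and between 0.0239 and 0.256 for Gls2. Slc25a13, the aspartate and glutamate carrier, had 187 to 222 CPM in high-fat pieces and 235 to 265 CPM on the normal diet, apart in range but at −0.33 ± 0.15 (adjusted p = 0.111, edgeR). It passed in an edgeR fit of these 2 groups alone (adjusted p = 0.0135) and in that fit with a replicate block (adjusted p = 0.0236), in a range over all alternatives of 0.0135 to 0.219. Nags had −0.19 ± 0.16, with a 95% interval of −0.53 to 0.15. Members whose high-fat libraries all lay below every normal-diet library numbered 5 (Cps1, Asl, Arg1, Slc25a15 and Slc25a13), where 16.3% of all genes did so.

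Cps1 made up 27.0 to 32.5% of the summed counts of the 9 members in high-fat non-tumour pieces of non-exercised mice, against 39.1 to 42.9% in normal-diet liver, so its share within the set was lower as well as its level. The 9 members together held 0.494 to 0.691% of library counts in the high-fat pieces and 0.776 to 0.95% on the normal diet. Among 10 hepatocyte secreted-protein genes 3 fell (Fga, Fgb and Serpinc1), where 11.9% of all genes did, and Alb did not pass (−0.26 ± 0.22, adjusted p = 0.416, edgeR). Markers of macrophages were higher in the same pieces: 8 of 12 rose, where 14% of all genes did, and their summed level was 361 to 526 CPM in high-fat pieces and 199 to 277 CPM on the normal diet, with none of the 12 at 0 in all libraries of a group. In bulk liver fewer hepatocytes and less RNA per hepatocyte cannot be told apart, and the part of macrophage RNA in these differences was not tested.

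**Figure D2:**
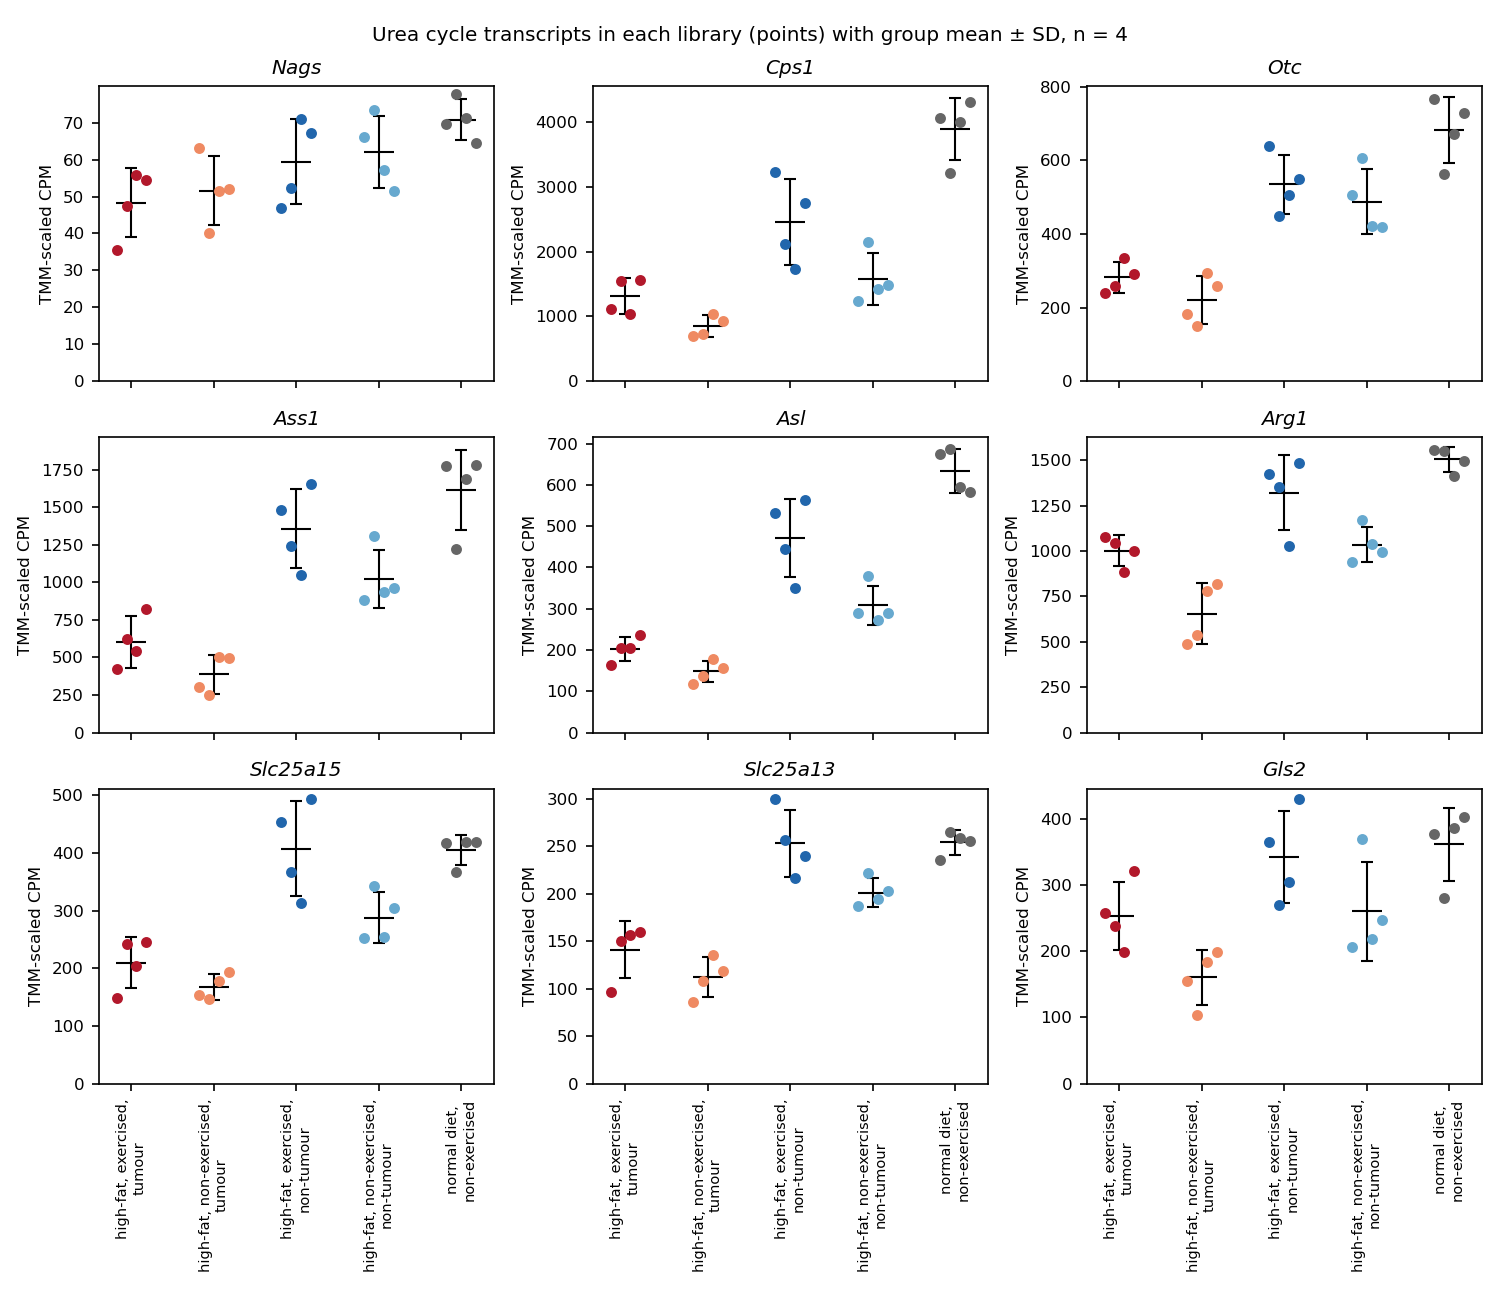
TMM-scaled CPM of each of the 9 genes in every library (points), with the group mean and SD (n = 4), for tumour pieces, high-fat non-tumour pieces and normal-diet liver. Cps1 and Asl separate normal-diet from high-fat non-exercised liver, 6 genes separate tumour from non-tumour pieces within each arm, and the Nags groups overlap throughout the tumour and non-tumour pieces.

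Tumour pieces had lower urea cycle transcripts than non-tumour pieces in both arms. In exercised mice 6 of the 9 members fell (Asl, Ass1, Slc25a15, Otc, Cps1 and Slc25a13), where 16% of all genes did. In non-exercised mice 8 fell and the ninth, Nags, did not pass, where 17.8% of all genes fell. The median log2 fold change of the members was −0.90 in exercised and −0.84 in non-exercised mice, against 0.01 and −0.01 over all genes. For each of the 6 and of the 8 members every tumour library lay below every non-tumour library, which 13.9% of all genes did in exercised and 18.2% in non-exercised mice.

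Ass1 stood at 420, 624, 544 and 825 CPM in tumour pieces of exercised mice, against 1484, 1241, 1052 and 1654 CPM in their non-tumour pieces (log2 fold change −1.17 ± 0.24, adjusted p = 0.00154, edgeR). In non-exercised mice it stood at 300, 252, 501 and 498 CPM in tumour pieces, against 883, 1308, 933 and 962 CPM in non-tumour pieces (−1.40 ± 0.24, adjusted p = 0.000356, edgeR), the largest difference of the 9 members in that arm. Tumour replicates 1 and 2 of the non-exercised arm were lowest, and neither arm's groups overlapped. Adding the counts of the copy Gm5424 to Ass1 left these log2 fold changes at −1.17 and −1.40. Gm5424 had too few counts to move them, and the sum does not bring back shared reads that were not counted.

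Asl, next in the cycle, had 164, 206, 206 and 236 CPM in tumour pieces of exercised mice, against 532, 444, 351 and 563 CPM in their non-tumour pieces (−1.22 ± 0.16, adjusted p = 7.82e-05, edgeR). In non-exercised mice Asl had 118, 138, 179 and 156 CPM in tumour pieces, against 289, 379, 273 and 290 CPM in non-tumour pieces (−1.06 ± 0.16, adjusted p = 0.000149, edgeR). The gap was wide in both arms, the highest tumour library of the exercised arm being at 236 CPM and the lowest non-tumour library at 351 CPM.

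Otc, the mitochondrial ornithine transcarbamylase, had 241, 258, 336 and 291 CPM in tumour pieces of exercised mice, against 638, 448, 505 and 549 CPM in their non-tumour pieces (−0.92 ± 0.19, adjusted p = 0.00156, edgeR). In non-exercised mice it had 183, 150, 294 and 258 CPM in tumour pieces, against 505, 606, 423 and 418 CPM in non-tumour pieces (−1.14 ± 0.19, adjusted p = 0.000284, edgeR). Tumour and non-tumour libraries were apart in both arms, while Otc had not passed on the diet comparison.

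Cps1 stood at 1115, 1550, 1041 and 1566 CPM in tumour pieces of exercised mice, against 3231, 2114, 1739 and 2756 CPM in non-tumour pieces (−0.90 ± 0.21, adjusted p = 0.00401, edgeR). In non-exercised mice it stood at 704, 727, 1041 and 936 CPM in tumour pieces, against 1232, 2152, 1428 and 1490 CPM in non-tumour pieces (−0.89 ± 0.21, adjusted p = 0.00387, edgeR). Exercised tumours 2 and 4 exceeded 3 of the 4 non-exercised non-tumour libraries, so the level of Cps1 alone did not separate all tumour from all non-tumour libraries.

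Both carriers fell in tumours of both arms. Slc25a15 had 149, 242, 204 and 245 CPM in tumour pieces of exercised mice, against 454, 366, 313 and 494 CPM in non-tumour pieces, and fell by 0.96 ± 0.16 on the log2 scale (adjusted p = 0.000499, edgeR). In non-exercised mice Slc25a15 had 153, 146, 178 and 194 CPM in tumour pieces, against 252, 343, 255 and 305 CPM in non-tumour pieces, and fell by 0.78 ± 0.16 (adjusted p = 0.00152, edgeR). No tumour library of either arm reached a non-tumour library of its arm. Slc25a13 had 96.4, 150, 157 and 160 CPM in tumour pieces of exercised mice, against 300, 257, 217 and 240 CPM in non-tumour pieces, and fell by 0.85 ± 0.15 (adjusted p = 0.000652, edgeR). In non-exercised mice Slc25a13 had 85.8, 108, 136 and 119 CPM in tumour pieces, against 187, 222, 194 and 203 CPM in non-tumour pieces, and fell by 0.84 ± 0.15 (adjusted p = 0.000502, edgeR). Its groups were apart as well. Slc25a12, the gene of the other aspartate and glutamate carrier, did not pass in either arm, with −0.24 ± 0.12 in exercised and −0.09 ± 0.12 in non-exercised mice.

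Arg1 and Gls2 did not pass in tumours of exercised mice and fell in those of non-exercised mice. In exercised mice Arg1 had 1079, 1044, 883 and 998 CPM in tumour pieces and 1424, 1353, 1026 and 1485 CPM in non-tumour pieces, which overlap only through non-tumour replicate 3 (−0.40 ± 0.15, adjusted p = 0.052, edgeR). Without that library Arg1 passed at −0.52 (adjusted p = 0.0185, edgeR), and over all alternatives the adjusted p ran between 0.0185 and 0.13. In non-exercised mice Arg1 had 485, 539, 777 and 817 CPM in tumour pieces, against 942, 1170, 1036 and 993 CPM in non-tumour pieces, with no overlap (−0.66 ± 0.16, adjusted p = 0.00325, edgeR).

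Gls2 had 257, 238, 198 and 321 CPM in tumour pieces of exercised mice and 364, 270, 305 and 429 CPM in non-tumour pieces (−0.43 ± 0.22, adjusted p = 0.13, edgeR). In non-exercised mice Gls2 had 155, 104, 184 and 198 CPM in tumour pieces, against 207, 369, 218 and 247 CPM in non-tumour pieces (−0.70 ± 0.22, adjusted p = 0.0185, edgeR). The exercised groups overlapped, through tumour replicate 4, and the non-exercised groups were just apart. The call rests on single libraries: without non-tumour replicate 2 the value was −0.47 (adjusted p = 0.0975, edgeR), without tumour replicate 1 the adjusted p was 0.0567 and without tumour replicate 2 it was 0.0707, in a range over all alternatives of 0.00915 to 0.0975. Whether the tumour differences of Arg1 and Gls2 differ between arms is answered by the interaction, where both had 0.26 on the log2 scale and did not pass, with SEs of 0.22 and 0.31.

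Nags was the 1 member that passed in no comparison. It had 35.6, 47.3, 55.9 and 54.6 CPM in tumour pieces of exercised mice and 47.0, 52.3, 70.9 and 67.3 CPM in non-tumour pieces, which overlap (−0.30 ± 0.16, 95% interval −0.64 to 0.04, adjusted p = 0.166, edgeR). In non-exercised mice it had 63.0, 40.2, 51.4 and 51.9 CPM in tumour pieces and 66.1, 73.5, 57.1 and 51.4 CPM in non-tumour pieces (−0.26 ± 0.16, 95% interval −0.60 to 0.07, adjusted p = 0.212, edgeR). A fall of Nags within these intervals was not resolved here.

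**Figure D3:**
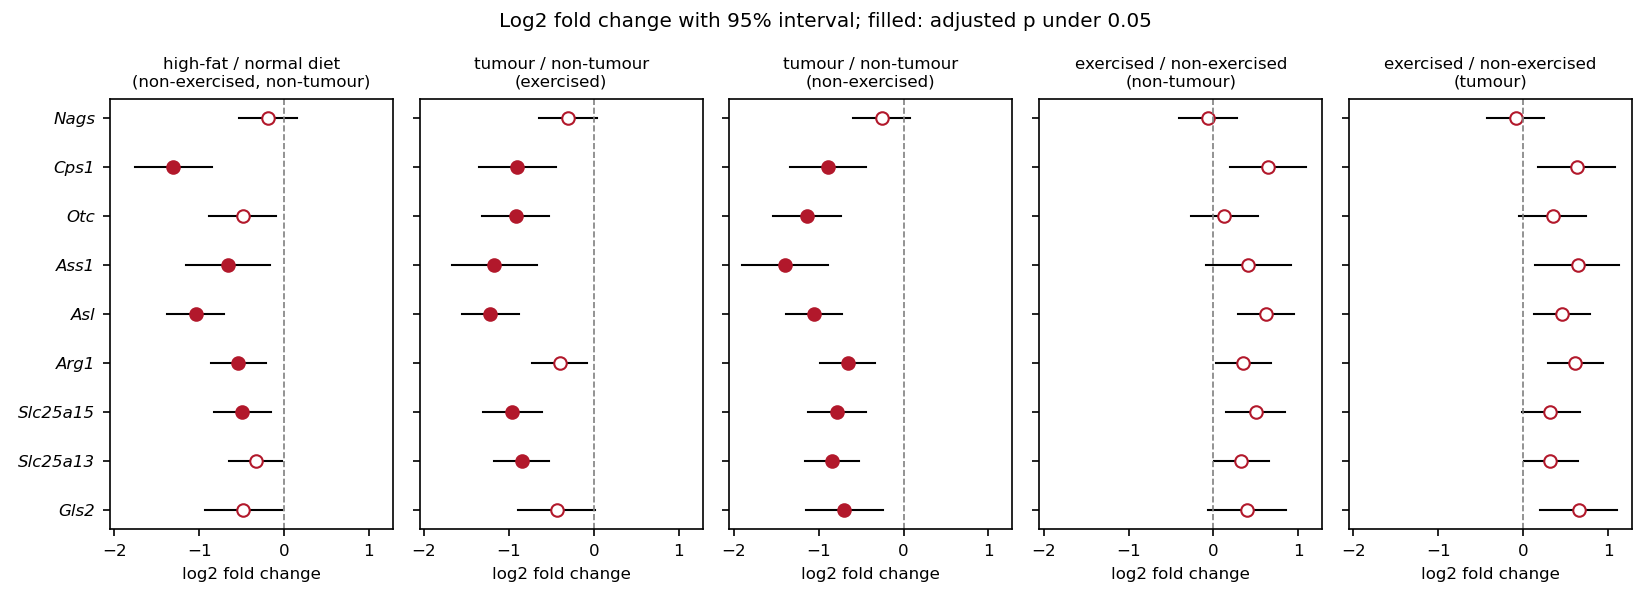
Log2 fold change of each gene with its 95% interval for the diet, tumour and exercise comparisons, with filled points where the adjusted p was under 0.05. Diet and tumour estimates lie below 0 throughout, exercise estimates lie above 0 except for Nags, and filled points are found in the diet and tumour panels only.

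Hepatocyte secreted-protein genes moved the other way in the same tumour pieces. Of 10 such genes 7 rose in each arm, where 18.6% of all genes rose in exercised and 18% in non-exercised mice, and the other 3 did not pass. Alb rose by 1.25 ± 0.23 in exercised and 1.40 ± 0.23 in non-exercised mice and Apoa1, an apolipoprotein, by 1.62 ± 0.23 and 1.64 ± 0.23, with list medians of 0.70 and 0.92. Alb took 10.6 to 15.3% of counts in tumour pieces of exercised mice, 9.05 to 15.9% in those of non-exercised mice, and at most 7.36% in the other 12 libraries. The 9 members took 0.299 to 0.44% in exercised and 0.202 to 0.379% in non-exercised tumour pieces, against 0.589 to 0.83% and 0.494 to 0.691% in the matching non-tumour pieces. Per 1000 Alb counts there were 6.14 to 11.8 Cps1 counts in tumour pieces of exercised mice and 3.98 to 13.1 in those of non-exercised mice, against 29.9 to 63.4 and 29.1 to 36.0 in non-tumour pieces and 57.9 to 76.1 in normal-diet liver. In tumours the lower urea cycle levels stood beside higher Alb. The ratio of Cps1 to Alb counts reflects both changes, and the part of hepatocyte content in either was not tested. Of 8 cell cycle genes 6 rose in tumours of exercised and 7 in those of non-exercised mice.

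Some markers of other liver cells also passed in tumours. Of all genes 16% fell and 18.6% rose in exercised mice, and 17.8% fell and 18% rose in non-exercised mice. With so few markers a list, counts near these shares are not read as changes of a cell type. Of 12 macrophage markers 4 fell in exercised and 3 in non-exercised mice, among them the Kupffer cell genes Clec4f (by 1.42 ± 0.44 and 1.32 ± 0.44 on the log2 scale) and Timd4 (by 2.05 ± 0.68 and 2.16 ± 0.75). Their summed level was 160 to 371 CPM in tumour pieces of exercised and 141 to 588 CPM in those of non-exercised mice, against 377 to 468 and 361 to 526 CPM in non-tumour pieces. Of 9 stellate cell and fibroblast markers 2 rose in each arm, Reln and Acta2, with summed levels of 312 to 547 and 378 to 943 CPM in tumour pieces, against 267 to 608 and 387 to 755 CPM in non-tumour pieces. Of 8 endothelial markers 3 rose in exercised and 2 in non-exercised mice, Pecam1 and Cdh5 in both, and the sums were 241 to 310 and 193 to 410 CPM in tumour pieces, against 212 to 272 and 183 to 321 CPM in non-tumour pieces. Of 6 cholangiocyte markers 2 rose in each arm and 1 fell in non-exercised mice, with sums of 25.2 to 35.5 and 40.0 to 51.7 CPM in tumour pieces, against 15.1 to 28.3 and 25.1 to 35.8 CPM in non-tumour pieces. Of the 4 erythroid genes tested, Alas2 fell in each arm. None of these markers was at 0 in all libraries of a group, and their part in the urea cycle values was not tested.

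**Figure D4:**
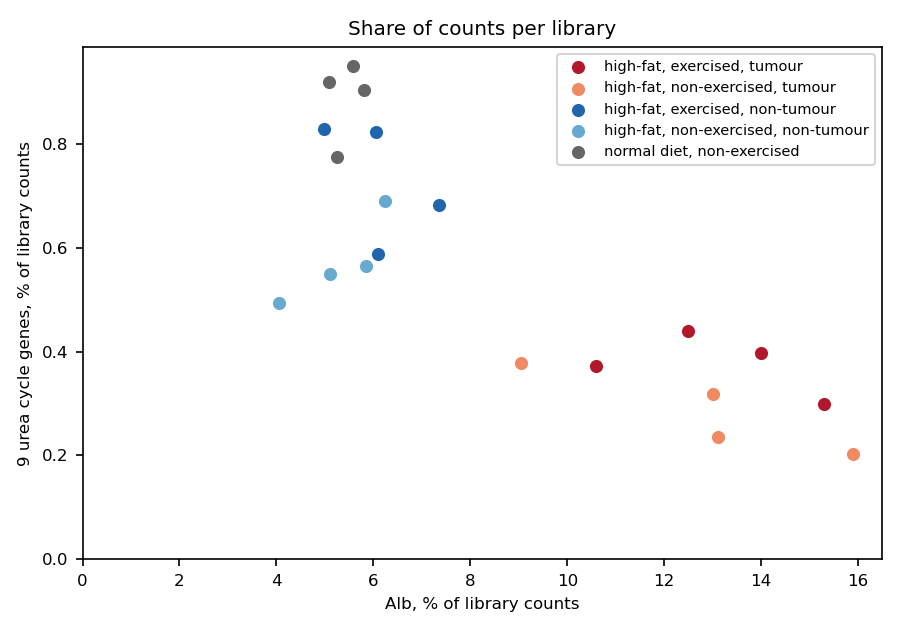
Share of library counts held by the 9 urea cycle genes (vertical axis, %) against the share held by Alb (horizontal axis, %), 1 point per library in the 5 groups. Tumour libraries lie at Alb shares of 9.05% and above and member shares of 0.44% and below, and the other 12 libraries lie at 7.36% or less of Alb and 0.494% or more of the members.

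Other periportal genes, which mark the zone where the cycle is strongest, fell in part. Of 10 markers 5 fell and 2 rose in tumours of exercised mice, where 16% of all genes fell and 18.6% rose. In those of non-exercised mice 5 fell and 1 rose, where 17.8% of all genes fell and 18% rose. The 2 that rose in exercised mice were Hsd17b13 and Aldh1b1. Their means were 853 and 206 CPM in tumour pieces, against 427 and 84.2 CPM in non-tumour pieces. Pck1, the gluconeogenic carboxykinase, fell by 1.11 ± 0.38 in exercised and 1.61 ± 0.38 in non-exercised mice, while Sds, serine dehydratase, had −0.44 ± 0.34 in exercised mice without passing and fell by 1.59 ± 0.35 in non-exercised mice. The periportal median was −0.59 in exercised and −0.71 in non-exercised mice. Pericentral genes were lower as well, with 7 of 10 falling in exercised and 5 of 10 in non-exercised mice and medians of −1.22 and −1.44. Tumours varied widely in this list: the summed pericentral level was 674 to 4198 CPM in tumour pieces of exercised and 400 to 3766 CPM in those of non-exercised mice, against 5479 to 10635 and 5113 to 8666 CPM in non-tumour pieces. The fall of urea cycle transcripts thus came with list medians below 0 for both zones, while some periportal markers rose. What part the zone of origin of a piece has in that fall was not tested.

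Genes that share substrates with the cycle were mixed. For the lists here and below, 16% of all genes fell and 18.6% rose in exercised mice. In non-exercised mice 17.8% of all genes fell and 18% rose. Of 11 genes of glutamine and glutamate metabolism, 2 rose and 5 fell in tumours of exercised mice and 3 rose and 4 fell in those of non-exercised mice. Aldh18a1, which opens proline and ornithine synthesis from glutamate, rose by 2.06 ± 0.29 in exercised and 2.53 ± 0.29 in non-exercised mice (adjusted p = 0.000128 and 4.69e-05, edgeR). Prodh, proline dehydrogenase, fell by 2.08 ± 0.60 in exercised and 2.21 ± 0.60 in non-exercised mice. Glul, glutamine synthetase, had −1.61 ± 0.65 in each arm and did not pass (adjusted p = 0.0637 in exercised and 0.0626 in non-exercised mice, edgeR), with tumour libraries spread over 182 to 1090 CPM in exercised and 28.4 to 897 CPM in non-exercised mice.

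Among 10 tested transporters of nitrogen and amino acids, Slc7a1, a cationic amino acid carrier for arginine, rose by 1.55 ± 0.36 in tumours of exercised and 1.89 ± 0.36 in those of non-exercised mice. It was the 1 that rose in each arm, and 5 fell in exercised and 4 in non-exercised mice, among them Slc25a22, a mitochondrial glutamate carrier, by 0.93 ± 0.16 and 0.92 ± 0.16. Of the supply and modification genes, Car5a, the mitochondrial carbonic anhydrase that provides bicarbonate to CPS1, fell by 1.26 ± 0.29 in exercised and 1.47 ± 0.30 in non-exercised mice and Sirt3, a mitochondrial deacetylase, by 0.92 ± 0.19 and 1.17 ± 0.19, while Sirt5, a deacylase that acts on CPS1, did not pass. Of 7 pyrimidine genes 1 rose in exercised mice, and 2 rose and 1 fell in non-exercised mice. In a list of 7 these counts are not far from the shares over all genes. Tyms, thymidylate synthase, rose by 0.47 ± 0.16 in exercised and 0.66 ± 0.16 in non-exercised mice, and Umps, which makes uridine monophosphate, fell by 0.24 ± 0.09 in non-exercised mice. Cad, whose product makes carbamoyl phosphate in the cytosol, had 0.52 ± 0.21 in exercised mice without passing (adjusted p = 0.058, edgeR) and rose by 0.60 ± 0.21 in non-exercised mice (adjusted p = 0.0311, edgeR). Of 11 genes that use arginine or ornithine, 2 rose and 1 fell in each arm, which is near or below the shares over all genes. Agmat, an agmatinase, fell by 1.10 ± 0.18 in exercised and 1.13 ± 0.18 in non-exercised mice. Nos2, the inducible nitric oxide synthase, rose in both arms at very low levels, with 0.25 to 1.37 CPM in tumour pieces of exercised and 0.362 to 1.23 CPM in those of non-exercised mice, against 0.0492 to 0.122 and 0 to 0.298 CPM in non-tumour pieces, so its non-tumour side rests on a few reads a library and no fold is given. Nos3, the endothelial nitric oxide synthase, rose by 0.89 ± 0.21 in exercised mice, and Srm, spermidine synthase, by 0.49 ± 0.14 in non-exercised mice.

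Of 11 receptors and transcription factors known to act on urea cycle genes, 5 fell in tumours of each arm and none of the others passed in either direction. Of all genes 16% fell in exercised and 17.8% in non-exercised mice. Cebpb, a C/EBP factor, fell by 0.81 ± 0.24 in exercised and 1.09 ± 0.24 in non-exercised mice, Klf15 by 0.79 ± 0.22 and 0.97 ± 0.23, and Gcgr, the glucagon receptor, by 0.37 ± 0.09 and 0.48 ± 0.09. The list medians were −0.41 and −0.48. Hnf4a, a hepatocyte nuclear receptor, did not pass in tumours (−0.13 ± 0.11 and −0.02 ± 0.11) but fell by 0.65 ± 0.11 on the high-fat diet (adjusted p = 0.000785, edgeR). On that diet Foxo3, Cebpb, Klf15 and Nr3c1, the glucocorticoid receptor, fell too, making 5 of the 11, where 11.9% of all genes fell. Of the 10 tested transporters 3 fell, namely Slc38a2 (−1.02 ± 0.23), Slc7a2 (−0.83 ± 0.19) and Slc38a4 (−0.44 ± 0.15).

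**Figure D5:**
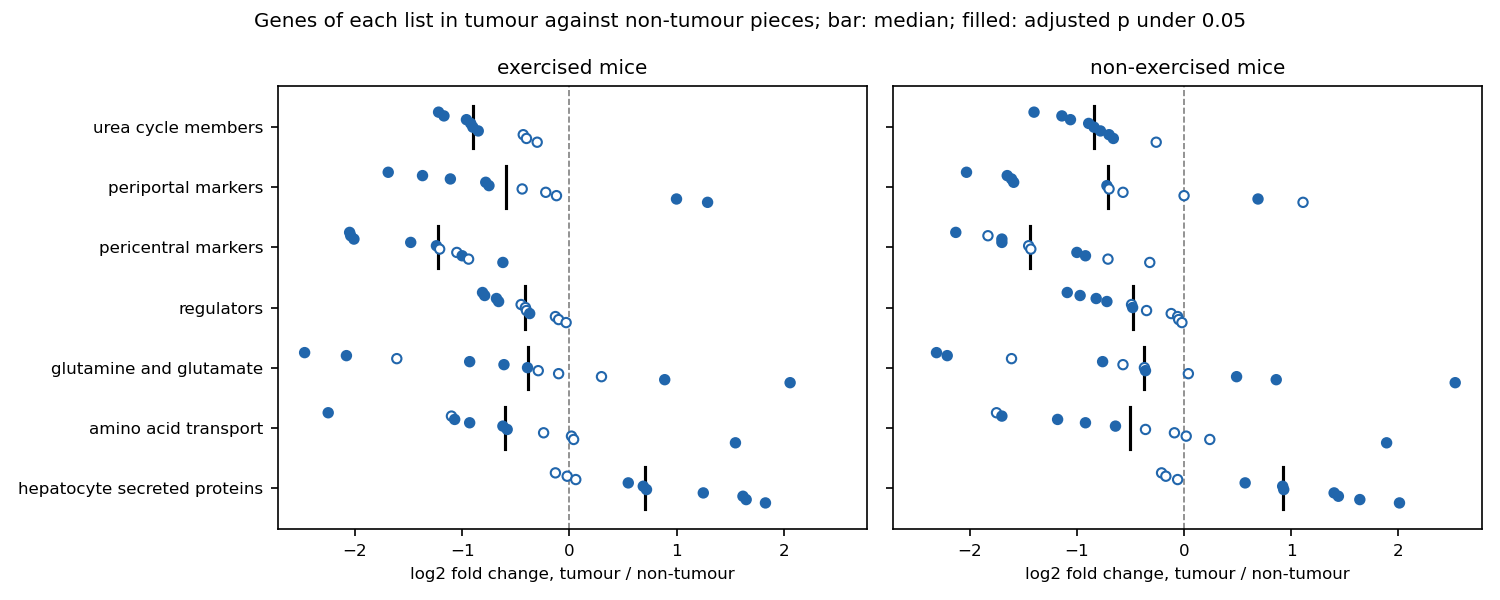
Log2 fold change of tumour over non-tumour pieces for every tested gene of 7 lists, in exercised and in non-exercised mice, with filled points where the adjusted p was under 0.05 and a bar at the list median. Urea cycle members lie wholly below 0 with medians of −0.90 and −0.84, and 7 of the 10 hepatocyte secreted-protein genes lie above 0 as filled points.

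Exercise gave no member that passed. In non-tumour pieces 0 of the 9 members passed by edgeR (2 genes, or 0.0139%, passed over all), 1 passed by DESeq2 and 0 by limma-voom, and in tumour pieces the counts were again 0, 1 and 0 (3 genes, or 0.0208%, passed over all by edgeR). The estimates leaned upwards: 8 of 9 were above 0 in non-tumour pieces, where 48% of all genes were, and 8 of 9 in tumour pieces, where 53% were. At an unadjusted p under 0.05, 5 members were higher in exercised non-tumour pieces (3.99% of all genes were) and 6 in exercised tumour pieces (5.33% of all genes). Each count is over genes that vary together in the 8 libraries of its comparison, and they are not 9 separate observations. Tumour and non-tumour pieces are read here as coming from the same mice, so the 2 tissues are not independent either. The last run was at most 2 h before the kill, so it cannot be told apart from the weeks of training.

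In non-tumour pieces Asl had 532, 444, 351 and 563 CPM in exercised mice and 289, 379, 273 and 290 CPM in non-exercised mice. Exercised replicate 3 was lowest of its group and lay below non-exercised replicate 2, and the log2 fold change was 0.62 ± 0.16 (adjusted p = 0.197, edgeR). Asl passed without exercised replicate 3 (0.74, adjusted p = 0.0382, edgeR) and by DESeq2 (adjusted p = 0.0203), in a range over all alternatives of 0.0203 to 0.735. Cps1 had 3231, 2114, 1739 and 2756 CPM in exercised and 1232, 2152, 1428 and 1490 CPM in non-exercised mice, with overlap and 0.64 ± 0.21 (adjusted p = 0.352, edgeR). Slc25a15 had 454, 366, 313 and 494 CPM in exercised mice and 252, 343, 255 and 305 CPM in non-exercised mice (0.50 ± 0.16, adjusted p = 0.35, edgeR). The remaining estimates ran from −0.06 for Nags to 0.41 for Ass1, and Otc had 0.13 ± 0.19.

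In tumour pieces Arg1 had 1079, 1044, 883 and 998 CPM in exercised mice and 485, 539, 777 and 817 CPM in non-exercised mice. The groups did not overlap, the log2 fold change was 0.61 ± 0.16, and the adjusted p was 0.205 by edgeR and 0.0234 by DESeq2, with a range over all alternatives of 0.0234 to 0.802. Cps1 also did not overlap, only just, since its lowest exercised and highest non-exercised tumour libraries both rounded to 1041 CPM (0.63 ± 0.21, adjusted p = 0.408, edgeR). These 2 are the members whose exercised tumours all lay above the non-exercised ones, as 2.27% of all genes did. Gls2 had 0.66 ± 0.22 (adjusted p = 0.392, edgeR), Ass1 0.64 ± 0.24 (adjusted p = 0.442, edgeR) and Nags −0.09 ± 0.16 (adjusted p = 0.897, edgeR).

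The interaction asks whether the tumour difference changed with exercise. For 0 of the 9 members did it pass, by edgeR, DESeq2 or limma-voom, and 0 members had an unadjusted p under 0.05. Over all genes 0% passed by edgeR and 2.03% had an unadjusted p under 0.05. Estimates ran from −0.17 for Slc25a15 to 0.26 for Arg1 and Gls2, and the 95% interval for Cps1 was −0.64 to 0.62, so differences between arms of up to about that size were not resolved.

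Exercised high-fat mice were also set against the normal diet, in non-tumour liver. Of the 9 members 1 fell, Cps1, with 3231, 2114, 1739 and 2756 CPM in exercised high-fat mice and 4059, 3214, 3993 and 4314 CPM on the normal diet (−0.66 ± 0.21, adjusted p = 0.0444, edgeR), where 6.69% of all genes fell. Its groups overlapped through exercised replicate 1, and the call was lost without any 1 of normal-diet replicates 1, 3 and 4 or exercised replicates 2, 3 and 4 (adjusted p = 0.0672 to 0.139, edgeR; 0.0176 to 0.139 over all alternatives). Asl lay lower in all 4 exercised libraries without passing (−0.43 ± 0.16, adjusted p = 0.0782, edgeR). Slc25a15 and Slc25a13 had log2 fold changes of 0.01 ± 0.16 and 0.00 ± 0.15, against −0.49 ± 0.16 and −0.33 ± 0.15 for non-exercised high-fat mice. The diet comparison shares its normal-diet libraries with this one and its high-fat libraries with the exercise comparison, so the 3 sets of values are not independent.

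Profiles over all 20 libraries were compared by the root mean square (RMS) difference of centred log2 CPM among 12663 genes, a description that follows group differences and shared depth alike. The gene most like Cps1 was Asl (0.222), and Cps1 was the third most like Asl, after Aass (0.159) and Gpat4 (0.201). Slc25a15 was most like Slc25a13 (0.168), followed by Sardh (0.179) and Slc38a4 (0.182). Ass1 was closest to its own copy Gm5424 (0.085), then to Abat (0.233) and Aass (0.24).

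The other members had nearest genes from outside the set. Otc was nearest to Slc27a5 (0.134), Mdh1 (0.141) and Phyh (0.141), Arg1 to Slc38a4 (0.161), Tdo2 (0.18) and Kcnn2 (0.189), and Gls2 to Kcnn2 (0.209), Slc29a1 (0.217) and Oaf (0.235), with Arg1 the fourth (0.236). Slc25a13 was nearest to Brap (0.121), Stard5 (0.13) and Eva1a (0.147). Nags varied least, with an RMS of 0.293 around its own mean against 0.839 for Ass1, and was nearest to Hexim1 (0.131), Stard13 (0.135) and Prr16 (0.148). The best ranked member for Nags was Slc25a13, at rank 6771.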

How the data were processed

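Liver RNA of 20 samples in 5 groups of 4, set by the sample titles, was analysed. The tools named are Subread 2.0.5, STAR 2.7.11a and Trim Galore 0.6.10, with build GRCm39 and GENCODE M27, per the submitters' processing notes. What the authors deposited are raw counts, 1 per gene summed over exons by featureCounts 2.0.5 at strand setting 2 (reverse-stranded), per the file headers. No option for multi-mapping or overlapping reads is named there, so genes with near copies may be under-counted. Read length, layout and batch are not stated there either.

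Genes were kept by filterByExpr (minimum count 10, minimum total 15) and scaled by TMM. The quasi-likelihood model of edgeR 4.0.16 (R 4.3.3) had 1 mean for each group and took in all 20 libraries (15 residual degrees of freedom); p-values are two-sided, Benjamini-Hochberg adjusted over 14428 genes, and a gene passed under 0.05. Fold changes are those of the fit, log2 CPM carries a prior count of 2, and an SE is the log2 fold change over the root of F. Intervals are 95% intervals from that fit. Alternatives were RLE and upper-quartile scaling, DESeq2 1.42.0, limma-voom (limma 3.58.1) with mouse as a random block (correlation 0.177), no filter, a 1 CPM filter in 4 libraries, a fit of the compared groups alone, replicate blocks, each library left out, and Ass1 summed with Gm5424, added after the data were seen.

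The members, gene lists and comparisons were chosen with earlier results of these data known. All 9 members are named in every comparison; of other lists the names come from the up to 4 called genes of smallest p in a comparison, not all of which are printed, with Glul, Prodh, Cad, Alb, Slc25a12, Hnf4a, Sirt5, Nr3c1 and Sds added after their values were seen. Within an arm, titles number tumour and non-tumour pieces alike, read here as pieces of 1 mouse; deviations of same-numbered pieces correlated at −0.0835 to 0.213 in non-exercised and 0.0754 to 0.441 in exercised mice. Titles number the replicates of a group as mice 1 to 4, taken here as separate mice. Libraries of a group correlated at 0.934 to 0.99, with at least 9.06 chi-square per gene between any pair (sampling noise gives about 1), so none was counted as deposited more than once. In tests on simulated counts, 33.3% of 1.5-fold and 67.2% of 2-fold changes were recovered in the diet comparison. These shares were 34.3% and 59.1% for exercise in non-tumour pieces, and 36.4% and 61.2% for tumours of non-exercised mice. Of the calls, 3.25%, 4.65% and 6.52% were false, in the same order. The diet test called 123 genes, against 3740 in the real diet comparison, so such rates need not carry over to these data.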

Additional observations from a re-analysis of the deposited data

Results flagged for a closer look

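In groups of 4, there were 4 cases of a library far from the other 3 of its group for a member, by Dixon's gap criterion at the 95% level. Chance gives about 1 in 20 of the 45 groups looked at, but members vary together, so these are not 45 separate tests. Normal-diet replicate 2 was low for Ass1 (1221 CPM, the others 1689 to 1784) and for Slc25a15 (366 CPM, the others 417 to 418). Over all genes this library also stood apart in its group. It had 45.4 to 49.6 chi-square per gene against the other 3, which had 9.06 to 12.1 among themselves. Pairs within the other groups had 17.1 to 192. Non-tumour replicate 2 of the non-exercised high-fat mice was high for Asl (379 CPM, the others 273 to 290). Tumour replicate 1 of the exercised mice was low for Slc25a13 (96.4 CPM, the others 150 to 160).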

How the results depend on the processing

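Of 63 results (9 members in 7 comparisons), 20 were called, none of these changed sign under any alternative run, and 16 were called under all of them; the exceptions are Ass1 and Slc25a15 on the diet, Gls2 in tumours of non-exercised mice and Cps1 in exercised high-fat against normal-diet mice. On the diet, 5 members were called; 3 were with upper-quartile scaling, and leaving out 1 library gave 3 to 7. The Ass1 call was lost with upper-quartile scaling, limma-voom or no filter (adjusted p = 0.0678, 0.077 and 0.0737), and that of Slc25a15 with upper-quartile scaling (0.0559), and Otc was called by DESeq2 (0.0398). In exercised high-fat against normal-diet mice the 1 call became 0 with upper-quartile scaling, limma-voom or no filter (adjusted p = 0.0508, 0.0576 and 0.0635), and leaving out 1 library gave 0 to 1. Exercise gave 1 member by DESeq2 in each tissue, and leaving out 1 library gave 0 to 1 in non-tumour and 0 in tumour pieces. In tumours of exercised mice Arg1 was called with RLE scaling (0.0492), DESeq2 (0.0248), limma-voom (0.0397) or the 1 CPM filter (0.0449), and leaving out 1 library gave 6 to 7 calls; in non-exercised mice it gave 7 to 8, and Gls2 was lost in a fit of the compared groups alone (0.0526).

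With mouse as a replicate block the tumour comparisons kept 8 and 6 calls, and the block changed no other call there. In the other comparisons samples share only a number; there the replicate block, in a fit of the 2 compared groups, gave 6 calls on the diet, with Slc25a13 added (adjusted p = 0.0236), while those groups without the block gave 7, with Slc25a13 (0.0135) and Otc (0.0262) added. Members on which the direction turned were all uncalled. Leaving out 1 library gave log2 fold changes of −0.15 to 0.039 for Nags with exercise in non-tumour and −0.21 to 0.028 in tumour pieces. In the interaction it gave −0.22 to 0.12 for Cps1, −0.15 to 0.09 for Nags and −0.15 to 0.14 for Slc25a13. In exercised high-fat against normal-diet mice it gave −0.099 to 0.12 for Slc25a15, −0.097 to 0.072 for Slc25a13 and −0.21 to 0.021 for Gls2; limma-voom gave −0.0082 for Slc25a15, and Slc25a13 had 0.0027 with RLE or DESeq2, 0.037 with upper-quartile scaling, 0.0075 without a filter, 0.0053 with the 1 CPM filter, 0.011 in the compared groups alone and 0.0022 with the replicate block. Over all genes, exercise in non-tumour pieces called 2 genes (117 by DESeq2, 0 by limma-voom, 0 to 72 with 1 library left out) and in tumour pieces 3 (79 by DESeq2, 0 to 41), and exercised high-fat against normal-diet mice 2053 (1302 without a filter, 1157 to 2157 with 1 library left out). The causes were not tested. With 4 libraries a group, changes under about 1.5-fold were resolved unevenly. On the diet Arg1 (1.45-fold lower) and Slc25a15 (1.40-fold) passed, while Otc (1.40-fold) and Gls2 (1.39-fold) did not.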

Other observations

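Stellate cell and fibroblast markers, not described above, were also higher in non-tumour pieces of non-exercised high-fat mice than in normal-diet liver: 4 of 9 rose, where 14% of all genes did, and the median log2 fold change was 1.03. Cell cycle genes rose there as well, 5 of 8 with a median of 1.75. Of 4 erythroid genes tested 3 rose (Hba-a1, Hbb-bs and Hbb-bt), with a median of 1.54. Of 8 endothelial markers 3 fell, where 11.9% of all genes did, with a median of −0.42. The part of these lists in the urea cycle values was not tested.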
